A study of Mus musculus with 16 samples.

Results

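The comparison set 8 libraries of mouse first molar germs with a high level of Pou3f3 against 8 with a low level, and these 16 libraries are the whole series. The members of each set were chosen by the measured value of Pou3f3, above or below 30 CPM (a count after every library is brought to the same total). The high-Pou3f3 libraries carry the embryonic day labels ED15.0, ED16.0, ED17.0 and ED18.0, and the low-Pou3f3 libraries carry ED14.5, ED15.5, ED16.5 and ED17.5. Each set holds 4 libraries labelled as upper molar and 4 labelled as lower molar. Every library is poly(A) RNA of a left and a right germ pooled from 1 wild-type embryo labelled male of CD1, an outbred strain. Per the labels the upper and the lower library of a stage share their embryo, so each set holds 4 embryos. No treatment or mutation separates the sets, and they differ in the labels by stage alone. The division was found in these same libraries, so a test of another gene describes how far libraries sorted in this way differ and is not independent evidence that the division exists.

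A tooth germ is an epithelial bud, cap or bell that grows into mesenchyme derived from the cranial neural crest. The 2 tissues signal to each other through the Wnt, Bmp, Fgf, Hedgehog and Eda pathways, and the enamel knots of the epithelium place the cusps. The mesenchyme of the upper and the lower jaw carries different homeobox genes: Pou3f3 is known as a gene of the maxillary arch, while Dlx5 and Dlx6 with targets such as Gsc are known from the mandibular arch. Pou3f3 encodes a POU domain transcription factor, and Nkx2-3 encodes a homeodomain factor of the NK2 family.

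Promoters are shown for the genes that define the sets and for 2 of the genes that differed between them, one in each direction, so that the regulatory letters stand beside the values. Each runs from 250 bases before to 50 bases after the annotated start, on the gene's own strand, taken from RefSeq on GRCm38.p6. They lie at chr1:42695518-42695817 (plus strand) for Pou3f3, chr19:43612075-43612374 (plus) for Nkx2-3, chr3:31149670-31149969 (plus) for Cldn11 and chr12:104473187-104473486 (minus) for Gsc. Capitals mark matches on either strand to CCAAT (the CCAAT box) or TATAAA (the TATA box).
Pou3f3: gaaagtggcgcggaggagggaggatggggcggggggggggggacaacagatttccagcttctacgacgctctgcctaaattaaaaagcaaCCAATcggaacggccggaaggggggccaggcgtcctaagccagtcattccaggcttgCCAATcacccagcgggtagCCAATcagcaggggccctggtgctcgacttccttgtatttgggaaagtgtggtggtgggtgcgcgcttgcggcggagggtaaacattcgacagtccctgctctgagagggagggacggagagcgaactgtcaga
Nkx2-3: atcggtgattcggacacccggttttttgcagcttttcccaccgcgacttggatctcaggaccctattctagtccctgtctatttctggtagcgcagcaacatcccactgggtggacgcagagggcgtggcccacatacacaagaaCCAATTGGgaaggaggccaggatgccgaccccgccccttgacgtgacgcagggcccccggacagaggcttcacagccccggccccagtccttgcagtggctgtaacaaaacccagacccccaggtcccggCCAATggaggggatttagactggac
Cldn11: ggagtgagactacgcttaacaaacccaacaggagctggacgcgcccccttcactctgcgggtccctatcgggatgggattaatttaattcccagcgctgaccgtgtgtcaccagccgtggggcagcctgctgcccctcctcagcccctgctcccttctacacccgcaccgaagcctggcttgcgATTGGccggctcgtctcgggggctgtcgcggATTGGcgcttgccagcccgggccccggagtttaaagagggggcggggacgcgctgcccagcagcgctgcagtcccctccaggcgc
Gsc: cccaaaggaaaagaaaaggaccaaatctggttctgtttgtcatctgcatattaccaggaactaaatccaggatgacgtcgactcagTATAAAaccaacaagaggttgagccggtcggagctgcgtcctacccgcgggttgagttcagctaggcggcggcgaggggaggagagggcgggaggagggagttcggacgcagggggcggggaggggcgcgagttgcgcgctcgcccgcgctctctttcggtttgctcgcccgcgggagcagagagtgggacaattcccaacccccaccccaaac
Pou3f3 and Nkx2-3 each held 3 matches to CCAAT, counting both strands and overlaps, and Cldn11 held 2. The Gsc window held 1 match to TATAAA and none to CCAAT. None of these windows held the POU octamer ATGCAAAT, the homeodomain core TAATTA or the NK2 core CAAGTG. Over 32851 promoters of the same length, CCAAT was found in 37.4%, TATAAA in 13.6%, CAAGTG in 13.6%, TAATTA in 5.29% and ATGCAAAT in 1.74%. A match describes letters in a window and not a bound site.

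The gene that chose the sets left a wide gap. Pou3f3 (chromosome 1, 42695768 to 42703176, GENCODE M21 on GRCm38) had a lowest, median and highest value of 60.0, 97.8 and 131 CPM in the high-Pou3f3 libraries and 4.53, 5.95 and 10.1 CPM in the low-Pou3f3 libraries. Nearest to the dividing value of 30 CPM lay labelled lower ED18.0 above it, at 60.0 CPM, and labelled upper ED17.5 below it, at 10.1 CPM. Nkx2-3 (chromosome 19, 43612325 to 43615892) had 35.4 CPM at the median and 19.5 to 56.5 CPM in the low-Pou3f3 libraries. In the high-Pou3f3 libraries it lay between 0 and 0.112 CPM, which is at most 5 counts in a library and 14 counts over all 8. Both genes are given as a description of the sets. Pou3f3, a maxillary gene, was thus high in 4 libraries labelled lower and low in 4 labelled upper, so the tooth label and this gene do not match, and the jaw of origin of each germ was not tested.

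A pair of long noncoding RNA genes beside Pou3f3 followed it. RefSeq places 2900092D14Rik at 42700336 to 42703176 on chromosome 1, within the span that GENCODE gives to Pou3f3. Its values were 9.51 to 25.9 CPM in the high-Pou3f3 libraries and 0.738 to 2.09 CPM in the low-Pou3f3 libraries. Pantr1, listed in the counts as 2610017I09Rik, ends just before the start of Pou3f3, and had 5.63 to 15.4 against 0.433 to 1.54 CPM. The libraries do not mark strand, and reads of the Pou3f3 transcript and of 2900092D14Rik could not be told apart there, so these values are not separate from the rule.

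**Figure D1:**
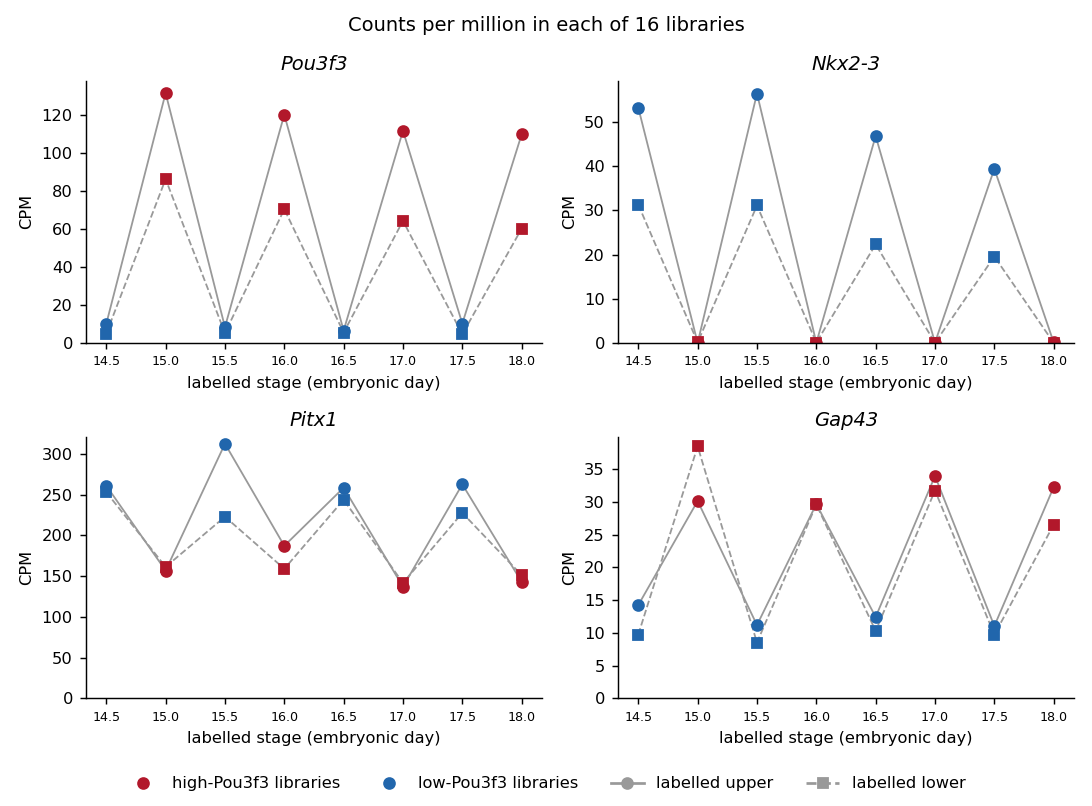
CPM of 4 genes (vertical axes, linear) against the labelled embryonic day (horizontal axes) in 16 libraries, with circles and solid lines for libraries labelled upper, squares and broken lines for those labelled lower, red for high-Pou3f3 and blue for low-Pou3f3 libraries. Pou3f3 and Nkx2-3 define or mark the sets, while Pitx1 (137 to 187 against 223 to 312 CPM) and Gap43 (26.5 to 38.5 against 8.53 to 14.3 CPM) also separate them with no overlap.

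The libraries were alike in depth and broad quality. Gene counts totalled 33146758 to 44565205 per library in the high-Pou3f3 set and 33939255 to 40021946 in the low-Pou3f3 set. Counts outside annotated genes made up 12.9% to 15.1% and 12.6% to 14.2% of those on genes, outside genes or on overlapping genes, and their part in the results was not tested. The flow cell followed the tooth label and each of 4 lanes held 2 libraries of both sets. The index numbers did not: 5 were used in the high-Pou3f3 set, 5 others in the low-Pou3f3 set and 0 in both, so index and set cannot be told apart. Markers of both germ tissues were present in every library, with Krt14 at 408 to 730 and 519.5 to 863 CPM and Barx1 at 268 to 421 and 178 to 290.0 CPM. Xist was between 1510 and 1839 CPM in the libraries labelled upper and between 428.5 and 1916 CPM in those labelled lower. Eif2s3y, Kdm5d and Uty, which lie on the Y chromosome, were at 0 in all libraries. These values go against the male label in both sets alike. Whether the upper and the lower library of a stage share an embryo, as labelled, was not tested.

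Genes were compared within 8 pairs of neighbouring stages that share a tooth label, each with a high-Pou3f3 library labelled 0.5 days after its low-Pou3f3 partner. Of 16287 tested genes, 2402 were higher in the high-Pou3f3 libraries, Pou3f3 among them, which is 14.7% of all tested genes, and 2447 were higher in the low-Pou3f3 libraries, Nkx2-3 among them, which is 15% (edgeR's quasi-likelihood test, Benjamini-Hochberg adjusted p under 0.05). Most differences were small, with a median of 1.133-fold among the called genes, and 176 and 42 passed 2-fold. In these pairs a gene that changes with stage would also differ, so the pairing was shifted to set each high-Pou3f3 library against the next low-Pou3f3 library, labelled 0.5 days later. In those 6 pairs of 12 libraries, 565 and 402 genes passed. Of the 2402 and 2447 genes, 2363 and 2422 had the same sign in the shifted pairs, 557 and 379 passed there too in the same direction, and 0 passed in the opposite one. The 176 and 42 genes past 2-fold all kept their sign. The shifted pairs reuse 12 of the same 16 libraries, so a sign kept there is not independent evidence. With no pairs, and labelled stage fitted as a line inside each tooth label, 1371 and 1086 genes passed. In the libraries labelled lower alone 1339 and 1087 passed. A called gene that also kept 1 sign in all 8 pairs and all 6 shifted pairs was rarer, 699 genes (4.29%) in the first direction and 487 (2.99%) in the second. The lowest high-Pou3f3 library stood above the highest low-Pou3f3 library at 112 genes (0.688%), Pou3f3 and the long noncoding RNA genes beside it among them. The reverse held at 35 genes (0.215%), Nkx2-3 among them. The p-values measure the spread among 8 pairs (7 residual degrees of freedom), after edgeR moderated each gene's spread with that of all tested genes. Per the labels each of the 4 embryos of a set enters these pairs 2 times, once with each germ.

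**Figure D2:**
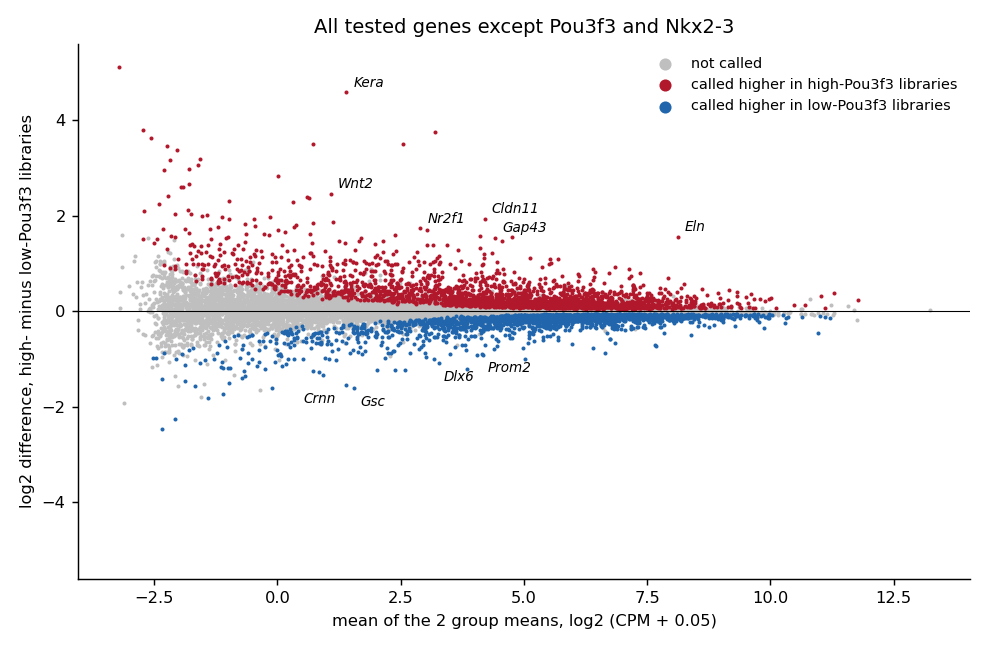
Log2 difference of high-Pou3f3 minus low-Pou3f3 libraries (vertical axis) against the mean level (horizontal axis, log2 scale) for each tested gene except Pou3f3 and Nkx2-3, with called genes in red or blue and the rest in grey. With Pou3f3 and Nkx2-3 counted, 176 called genes lie above 2-fold on the upper side and 42 on the lower side.

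Kera led the genes that were higher in the high-Pou3f3 libraries. It lies on chromosome 10 (97606879 to 97613692) and encodes keratocan, a small leucine-rich proteoglycan. Its lowest, median and highest values were 0.121, 3.82 and 17.6 CPM against 0, 0.188 and 0.354 CPM, a log2 difference of 4.59 ± 0.34 (SE; adjusted p = 4.59e-06, edgeR). The sets overlapped through 1 library, labelled lower ED16.0, which had the 0.121 CPM, while all 8 pairs and all 6 shifted pairs had the same sign. Eln, the gene of elastin (chromosome 5, 134702593 to 134747323), had 225 to 888 CPM with a median of 396 against 92.1 to 179.6 CPM with a median of 145.5, and the sets did not overlap. Its log2 difference was 1.56 ± 0.18. Myocd, a coactivator of smooth muscle genes, differed by 2.37 ± 0.24, at 1.12 to 3.65 against 0.177 to 1.14 CPM. Cldn11 (chromosome 3, 31149920 to 31164324), which encodes a tight junction claudin, had 15.53, 24.98 and 46.57 CPM against 5.16, 6.93 and 12.1 CPM. The sets did not overlap for Cldn11 and it differed by 1.94 ± 0.16 on the log2 scale (adjusted p = 1.05e-05, edgeR).

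Secreted signal genes and transcription factor genes were among the 15 named in this direction. Wnt2 (chromosome 6, 17988940 to 18030585), a Wnt ligand, had 1.08, 2.20 and 9.64 CPM against 0.0509, 0.224 and 3.09 CPM, a log2 difference of 2.46 ± 0.26. It fell with labelled stage in both sets of the libraries labelled upper, so its overlap came from labelled upper ED14.5 and ED15.5 among the low-Pou3f3 libraries, at 3.09 and 1.82 CPM. Bmper, which encodes a secreted protein that binds Bmps, had a median of 33.8 against 8.54 CPM and differed by 1.55 ± 0.15, with overlapping sets. Nr2f1 (chromosome 13, 78188973 to 78199757), an orphan nuclear receptor, had 5.34, 11.2 and 18.1 CPM against 2.01, 2.77 and 5.34 CPM and differed by 1.74 ± 0.17. Foxp2, a forkhead factor, had 4.15 to 13.7 against 1.53 to 4.12 CPM, with no overlap, and differed by 1.60 ± 0.16.

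Gap43 (chromosome 16, 42248442 to 42340651), which encodes a growth cone protein, had 26.5, 31.0 and 38.5 CPM against 8.53, 10.7 and 14.3 CPM. It had the smallest adjusted p of the 30 named genes (2.99e-07, edgeR) with a log2 difference of 1.54 ± 0.08, and its 8 pairs lay between 1.08 and 1.98. Scg2, a granin of secretory vesicles, differed by 1.71 ± 0.20, Kcns3, a modulatory potassium channel subunit, by 1.53 ± 0.16, and Cdh8, a cadherin, by 1.48 ± 0.16. Agtr2, the type 2 angiotensin receptor, differed by 1.57 ± 0.34, its pairs ran from 0.16 to 3.32, and its sets overlapped at 7.78 to 51.6 against 1.71 to 36.1 CPM. Slc10a4, a vesicular transporter of the bile acid carrier family, differed by 1.88 ± 0.22, and Icos, a T cell costimulatory receptor, by 1.62 ± 0.15. Icos stood without overlap, at 1.40 to 6.42 against 0.433 to 1.24 CPM, with its highest value in labelled upper ED15.0.

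The genes higher in the low-Pou3f3 libraries were led by Gsc (chromosome 12, 104471209 to 104473330), the homeobox gene goosecoid. It had 0.574, 1.24 and 2.68 CPM in the high-Pou3f3 libraries and 2.58, 3.80 and 8.04 CPM in the low-Pou3f3 libraries, a log2 difference of -1.59 ± 0.17 (adjusted p = 6.38e-05, edgeR). The sets overlapped only between 2.58 and 2.68 CPM, and all 8 pairs lay between -2.57 and -1.04. Dlx6 (chromosome 6, 6863334 to 6868568) had 3.11, 5.20 and 12.9 against 7.28, 13.3 and 21.7 CPM and differed by -1.09 ± 0.12. Crnn, which encodes cornulin, differed by -1.54 ± 0.19, at 0.0280 to 3.10 against 0.295 to 8.79 CPM. Serpinb12, a serpin, differed by -1.23 ± 0.19, Dsc1, a desmocollin, by -1.0 ± 0.26, Spink5, a protease inhibitor of the epidermis, by -0.90 ± 0.17, and Krt24, a keratin, by -0.87 ± 0.12. Prom2, which encodes a membrane protein of epithelial cells, had a median of 8.76 against 16.3 CPM and differed by -0.89 ± 0.06, with the smallest adjusted p in this direction (1.35e-06, edgeR). The call on Dsc1 ended in the shifted pairs (adjusted p = 0.098, edgeR), where its difference was -1.40. Sectm1b differed by -1.33 ± 0.18, Dgkk, a diacylglycerol kinase, by -1.26 ± 0.27, Fam163b by -1.01 ± 0.12, Necab1, a calcium-binding protein, by -1.0 ± 0.13, Ofcc1 by -0.98 ± 0.13, Il17re, an interleukin 17 receptor subunit, by -0.88 ± 0.08, and Cntnap2, a neurexin relative, by -0.88 ± 0.11.

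**Figure D3:**
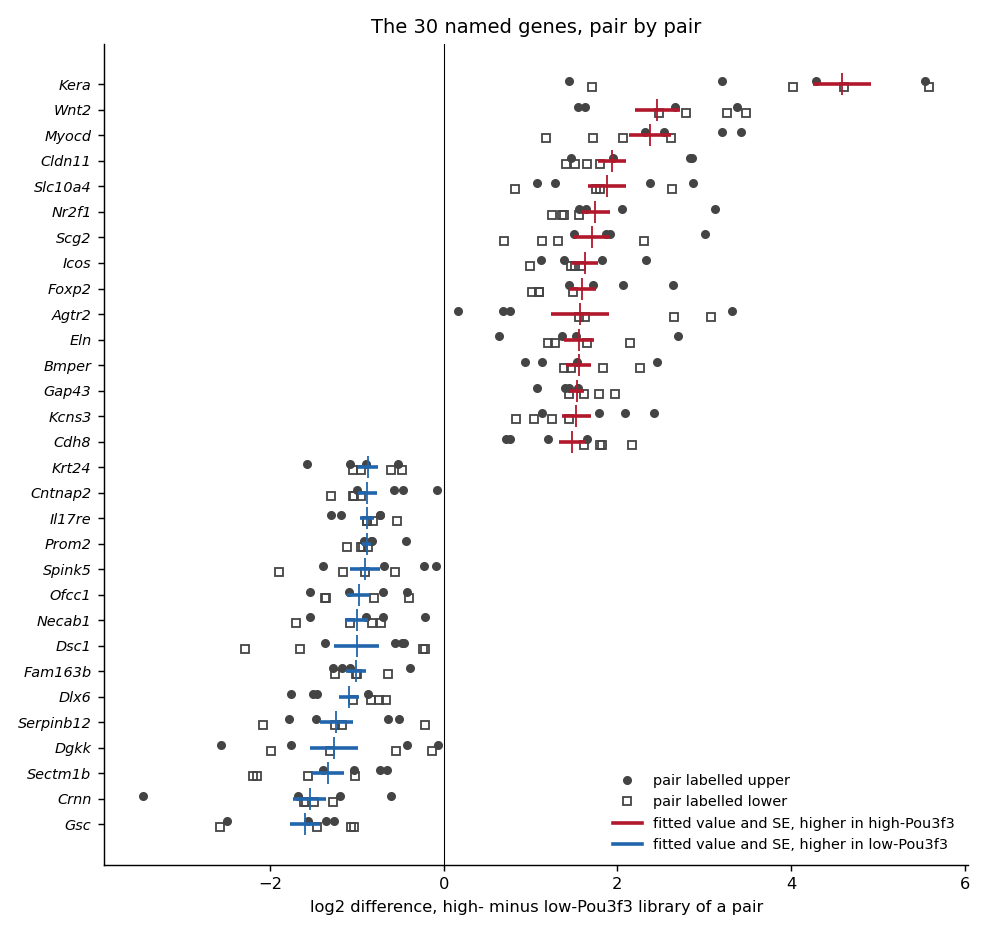
Log2 difference within each of 8 pairs (horizontal axis) for the 30 named genes (vertical axis), with filled circles for pairs labelled upper, open squares for pairs labelled lower, and a coloured tick with a bar for the fitted value and its SE. All 8 pairs of each gene lie on 1 side of 0, with Kera from 1.44 to 5.59 and Gsc from -2.57 to -1.04.

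In the fit of the libraries labelled upper alone 27 of the 30 passed, in that of the libraries labelled lower alone 29 passed, and 27 passed in both (edgeR). Each lane held 2 whole pairs and the naming rule required 1 sign in all 8, so their signs by pair or lane follow from the rule. The 30 were also chosen as called genes in these same libraries, so passing in 1 tooth label alone is not independent evidence.

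Both lists of jaw genes held genes called in each direction. Of 15 tested members of the maxillary arch and palate list, Pou3f3 apart, 6 were higher in the high-Pou3f3 libraries and 4 in the low-Pou3f3 libraries. Among all tested genes the shares were 14.7% and 15%. The mandibular list had 2 and 6 of 13, Nkx2-3 apart. Called genes that also passed in the shifted pairs were 5 and 0 of the maxillary list and 0 and 4 of the mandibular list. Over all 16287 tested genes they were 557 and 379. Alx1, a homeobox gene of the frontonasal and maxillary mesenchyme, had 0.581, 1.78 and 3.33 CPM against 0.0509, 0.427 and 1.03 CPM and differed by 2.29 ± 0.19. Pknox2, a TALE homeobox gene, differed by 1.03 ± 0.11 and Lhx6 (chromosome 2, 36081953 to 36105408), a LIM homeobox gene of the jaw mesenchyme, by 0.69 ± 0.05, at 217 to 346 against 114 to 242 CPM. Dlx1 differed by 0.39 ± 0.04 with no overlap, at 90.3 to 113 against 58.6 to 87.4 CPM. Dlx2, the partner of Dlx1, differed by 0.17 ± 0.04, and its call ended in the shifted pairs (adjusted p = 0.194, edgeR). The other 5 of the 6 called genes passed there too.

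The 4 maxillary genes higher in the low-Pou3f3 libraries were Sim2 (-0.62 ± 0.13), Meis2 (-0.56 ± 0.12), Meis1 (-0.38 ± 0.06) and Shox2 (-0.21 ± 0.04, log2 differences). None of these passed in the shifted pairs (adjusted p = 0.06, 0.811, 0.348 and 0.456, edgeR), where Sim2 had a larger difference than in the main pairs, at -1.12, and Meis2, Meis1 and Shox2 a smaller one, at -0.16, -0.17 and -0.10. Osr2 (-0.07), Alx4 (0.08), Tbx22 (0.17) and Tbx15 (-0.43) were among those that did not pass. Over the 15 genes the median log2 difference was 0.14, against -0.0031 over all tested genes.

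Of 13 tested members of the mandibular arch list, Nkx2-3 apart, 6 were higher in the low-Pou3f3 libraries and 2 in the high-Pou3f3 libraries. For all tested genes these shares were 15% and 14.7%. Pitx1 (chromosome 13, 55825051 to 55836192), a homeobox gene known from the mandible and the hind limb, had 137, 154 and 187 CPM in the high-Pou3f3 libraries and 223, 256 and 312 CPM in the low-Pou3f3 libraries. The sets did not overlap, and its log2 difference was -0.72 ± 0.04 (adjusted p = 8.08e-07, edgeR). Dlx5 (chromosome 6, 6877805 to 6882085) had 27.5, 86.4 and 164 CPM against 54.2, 132 and 181 CPM and differed by -0.58 ± 0.09 with overlapping sets, lower in 8 of 8 pairs. Gsc and Dlx6, given above, belong here, as do Dlx6as1 (-0.86 ± 0.24) and Dkk2, a secreted Wnt antagonist (-0.34 ± 0.07). Dlx6as1 overlaps Dlx6 on the other strand, and reads of the shared stretch could not be assigned to either gene. Dlx6as1 differed by -1.766 ± 0.124 in the libraries labelled upper alone and by -0.219 ± 0.083 in those labelled lower (adjusted p = 0.114, edgeR). Dlx6 differed there by -1.424 ± 0.135 and -0.823 ± 0.075. Gsc, Dlx6, Pitx1 and Dlx5 passed in the shifted pairs as well. Dlx6as1 (-1.37, adjusted p = 0.0561) and Dkk2 (-0.14, adjusted p = 0.536, edgeR) did not pass there.

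The 2 mandibular genes higher in the high-Pou3f3 libraries, Gbx2 and Isl1, did not pass in the shifted pairs (adjusted p = 0.535 and 0.133, edgeR). Gbx2 differed by 1.626 ± 0.143 in the libraries labelled lower alone (adjusted p = 0.000101, edgeR) and by 0.028 ± 0.235 in those labelled upper. Over all 8 pairs Gbx2, a homeobox gene, differed by 0.99 ± 0.27. Its call ended without replicate pair 5 or pair 6 (adjusted p = 0.0549 and 0.0523, edgeR), the labelled lower pairs of ED14.5 with ED15.0 and of ED15.5 with ED16.0. Isl1, at 0.0483 to 0.419 against 0 to 0.162 CPM, lost its call without any of 5 of the pairs, with an adjusted p of at most 0.111 (edgeR). Dlx3 (0.10), Dlx4 (0.03), Unc5c (-0.06) and Rgs5 (0.02) were among those that did not pass. Hand1 and Hand2, genes of the distal mandibular arch, had 5 and 16 counts over all libraries and were not tested. The median over the 13 genes was -0.06.

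Relatives of the defining genes were mostly at low levels. Pou3f4, another class III POU gene, had 0.185, 0.377 and 0.614 CPM against 0, 0.0393 and 0.147 CPM, with no overlap, a log2 difference of 2.60 ± 0.35. Pou6f1 had 55.9 to 80.0 against 37.5 to 55.5 CPM, also with no overlap, and differed by 0.48 ± 0.04. Pou3f2 differed by 0.83 ± 0.25, and its call ended in the shifted pairs (adjusted p = 0.216, edgeR) and without pair 2, 3, 4 or 7 (0.0596 to 0.0667). Pou3f1 (0.18) did not pass, and 3 of 8 tested Pou genes were higher in the high-Pou3f3 libraries and 0 in the other set, or 2 and 0 without pair 2, 3 or 4. All tested genes had shares of 14.7% and 15%. Nkx2-6 ran opposite to Nkx2-3, at 0.218 to 0.628 against 0 to 0.130 CPM, a log2 difference of 2.99 ± 0.47. Another 10 Nkx genes had too few counts to be tested.

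Transcription factor genes of the dental mesenchyme were higher in the high-Pou3f3 libraries at 13 of 25 tested members and in the low-Pou3f3 libraries at 0, with a median log2 difference of 0.17. For all tested genes the shares were 14.7% and 15%. The counts summed over the list were higher in the high-Pou3f3 library in 8 of 8 pairs. Barx1, a homeobox gene of the molar mesenchyme, had 268, 330 and 421 CPM against 178, 249 and 290.0 CPM and differed by 0.50 ± 0.03. Msx1, which is needed for the bud to become a cap, had 71.9, 128 and 254 CPM against 55.4, 95.3 and 172 CPM and differed by 0.43 ± 0.03. Runx2 differed by 0.47 ± 0.03, Osr1 by 0.62 ± 0.12 and Lhx8 by 0.41 ± 0.05. Sets overlapped for each of these, with the high-Pou3f3 library above its partner in 8 of 8 pairs except for Osr1, at 7 of 8. Of the 13 genes 11 also passed in the shifted pairs. Pax9 (0.18, adjusted p = 0.139, edgeR), Twist1 (0.14) and Msx2 (-0.11) did not pass in the main pairs, and Msx2 was lower in the shifted pairs (-0.42, adjusted p = 0.0263, edgeR).

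Dental epithelium genes ran the other way, beside 15% of all tested genes higher in the low-Pou3f3 libraries and 14.7% in the high-Pou3f3 libraries. Of 21 tested members 17 were higher in the low-Pou3f3 libraries and 0 in the high-Pou3f3 libraries, with a median of -0.31, and the summed counts were higher in the low-Pou3f3 library in 8 of 8 pairs, at 5760 to 6998 against 6895 to 8853 CPM. Krt5 (chromosome 15, 101707070 to 101712898), a keratin of basal epithelium, had 1245, 1715 and 1940 CPM against 1914, 2357 and 2510 CPM and differed by -0.44 ± 0.04 (adjusted p = 9.97e-06, edgeR). Dsp, which encodes the desmosomal protein desmoplakin, differed by -0.35 ± 0.03, Epcam, an epithelial adhesion molecule, by -0.33 ± 0.04 and Cdh1, E-cadherin, by -0.25 ± 0.04. Sox2 had the largest difference of the list at -0.80 ± 0.14, and Krt15 followed at -0.70 ± 0.10. Neither of them passed in the shifted pairs (adjusted p = 0.182 and 0.0566, edgeR). Trp63, the transcription factor of stratified epithelium, differed by -0.17 ± 0.02. All 17 kept their sign in the shifted pairs and 6 passed there. In RNA of a whole germ, fewer epithelial cells and less RNA of these genes per cell cannot be told apart, and the same holds for the mesenchyme genes.

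**Figure D4:**
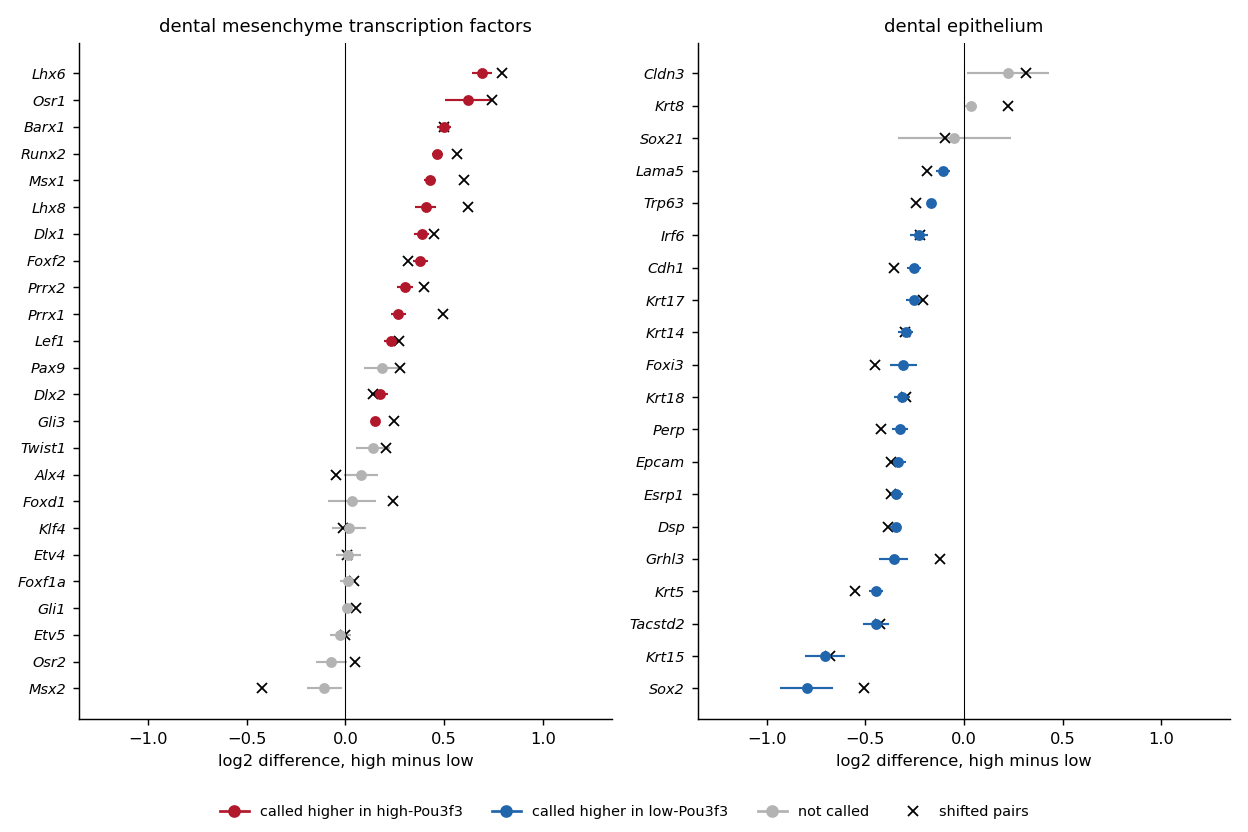
Log2 difference of high-Pou3f3 minus low-Pou3f3 libraries (horizontal axes, points with SE bars) for tested genes of the dental mesenchyme transcription factor list and the dental epithelium list (vertical axes), with crosses for the shifted pairs. The 13 called mesenchyme genes lie above 0 and the 17 called epithelium genes below 0.

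Of the 35 genes that stood wholly higher in the low-Pou3f3 libraries, the following were chosen after their values were seen, and others of the 35, such as Mif, Atp5a1 and Nras, are not known as epithelial genes. Pkp1 and Dsc2, which encode desmosomal proteins, had 253 to 332 against 341 to 486 CPM and 67.3 to 104 against 105 to 166 CPM. Their log2 differences were -0.50 ± 0.03 and -0.58 ± 0.06. Grhl2, an epithelial transcription factor, differed by -0.38 ± 0.03, Esrp1, an epithelial splicing regulator, by -0.34 ± 0.04, Spint2, a protease inhibitor, by -0.32 ± 0.03 and Lsr, a protein of tricellular junctions, by -0.29 ± 0.03. Krt7, a keratin of simple epithelium, differed by -0.57 ± 0.09 and Col13a1, a transmembrane collagen, by -0.62 ± 0.07. Among the 112 in the other direction, matrix genes with high counts were Emilin3 (0.89 ± 0.05), Matn2 (0.83 ± 0.05) and Spock2 (0.77 ± 0.04). Emilin3 had 88.4 to 129 against 49.1 to 70.8 CPM.

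Axon guidance genes were higher in the high-Pou3f3 libraries at 16 of 34 tested members and in the low-Pou3f3 libraries at 3, with a median of 0.13, and 7 of the 16 also passed in the shifted pairs. Over all tested genes the shares called were 14.7% and 15%. Dcc, a netrin receptor, had 4.73, 7.26 and 8.97 CPM against 2.08, 3.01 and 3.88 CPM, with no overlap, and differed by 1.19 ± 0.08. Sema3e, a secreted semaphorin, had 24.9 to 35.5 against 14.7 to 21.4 CPM and differed by 0.79 ± 0.09, and Epha3, an ephrin receptor, differed by 0.75 ± 0.07, both with no overlap. Ntn1, the netrin ligand of Dcc, differed by 0.57 ± 0.16 and Robo2, a Slit receptor, by 0.44 ± 0.04. Ntn1 did not pass in the shifted pairs (adjusted p = 0.203, edgeR). Its difference was 0.957 ± 0.168 in the libraries labelled upper alone and 0.196 ± 0.061 in those labelled lower. Other genes known from neurons and without overlap, chosen after their values were seen, were Dab1 (1.48 ± 0.11), Slitrk5 (1.47 ± 0.09), Rtn4rl1 (1.33 ± 0.11) and Unc5d (0.99 ± 0.08). Neuron markers were called in both directions. Of 13 tested, 5 were higher and 2 lower in the high-Pou3f3 libraries, with a median of 0.40, and none of the list was at 0 in all libraries. The 2 lower of 13 are a share near the 15% of all tested genes. Gap43, given above, had the largest difference of the list and alone among the called members also passed in the shifted pairs. Prph, an intermediate filament of peripheral neurons, had 0.314 to 1.09 against 0.153 to 0.650 CPM, while Nefm, a neurofilament, differed by -1.08 ± 0.20. The summed neuron counts were 86.1 to 128 and 63.2 to 108 CPM, higher in the high-Pou3f3 library in 8 of 8 pairs. Of 10 Schwann cell markers 4 were higher, led by Foxd3 (1.14 ± 0.24) and Sox10 (1.02 ± 0.21), and 2 lower, with sums of 104.5 to 164 and 121 to 161 CPM. Members of the Schwann cell list ran from -0.25 to 1.14, and their summed counts were higher in the high-Pou3f3 library in only 3 of 8 pairs. The part of nerve tissue in the axon guidance result was not tested.

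Signalling pathways divided by tissue of origin less simply. Of 40 tested Wnt pathway genes 14 were higher in the high-Pou3f3 libraries and 7 in the low-Pou3f3 libraries, against 14.7% and 15% of all tested genes. Beside Wnt2, the ligand gene Wnt2b differed by 0.97 ± 0.11 (5.89 to 13.5 against 3.0 to 6.76 CPM) and Rspo1, an R-spondin that amplifies Wnt signals, by 0.61 ± 0.05. The ligand genes Wnt3a, Wnt4, Wnt7b, Wnt10b and Wnt6 were higher in the low-Pou3f3 libraries, at -0.39 to -0.12. Of 30 Bmp pathway genes 9 and 4 were called in the 2 directions, with Bmp6, a ligand, at 0.63 ± 0.08 and Chrdl1, a secreted antagonist, at 0.68 ± 0.11. In the Fgf pathway 5 and 2 of 29 were called, shares near and below those of all tested genes. Fgf7, a mesenchymal ligand, differed by 0.73 ± 0.14, and did not pass in the libraries labelled lower alone (0.421 ± 0.154, adjusted p = 0.102, edgeR). In the Hedgehog pathway 6 and 2 of 15 were called. The ligand gene Shh, which the enamel knot expresses, was lower in the high-Pou3f3 libraries, at 43.1, 153 and 454 CPM against 63.6, 216 and 613 CPM, a log2 difference of -0.46 ± 0.09, and -0.89 in the shifted pairs. Its coreceptor gene Boc differed by 0.27 ± 0.03.

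Eda pathway genes, which control the number and shape of ectodermal organs, were higher in the low-Pou3f3 libraries at 5 of 9 and in the high-Pou3f3 libraries at 0. Edar, the receptor, differed by -0.38 ± 0.07, its adaptor Edaradd by -0.22 ± 0.05 and the ligand gene Eda by -0.19 ± 0.03. Edaradd and Relt, a member of the same receptor superfamily, passed in the shifted pairs and the other 3 did not. Enamel knot genes were called in the 2 directions at 1 and 7 of 22. In the activin and Tgfb pathway 7 and 2 of 18 were called. Tgfb3, a ligand known from palate fusion, had 131, 145 and 172 CPM against 80.3, 105 and 114 CPM, with no overlap, and differed by 0.52 ± 0.06. Of 19 retinoic acid genes 7 were higher in the high-Pou3f3 libraries and 1 lower. Aldh1a2, which makes retinoic acid, differed by 0.67 ± 0.15, Cyp26c1, which degrades it, by 0.89 ± 0.20, and Rarb, a receptor, by 0.42 ± 0.05. The difference of Aldh1a2 was 1.098 ± 0.101 in the libraries labelled upper alone and 0.222 ± 0.087 in those labelled lower (adjusted p = 0.126, edgeR). In the Notch pathway 2 and 2 of 17 were called, shares under the 14.7% and 15% of all tested genes. Jag2, a ligand of the epithelium, differed by -0.29 ± 0.03.

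Among other transcription factor families, the T-box list had 2 of 12 genes higher in the high-Pou3f3 libraries, a share near the 14.7% of all tested genes, and 0 in the other set. Tbx2 had 170, 181 and 211 CPM against 126, 136 and 167 CPM, with no overlap, and differed by 0.39 ± 0.03. Tbx3 differed by 0.15 ± 0.04, and its call ended without pair 2 or pair 3 (adjusted p = 0.0524 and 0.0562, edgeR), both labelled upper, in the shifted pairs (0.757) and with no pairs (0.231). The TALE list of Meis, Pbx and related genes had 4 and 3 of 18 called, and the Dlx list 2 and 3 of 8, against 14.7% and 15% of all tested genes.

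Cell division genes were higher in the low-Pou3f3 libraries at 17 of 25 and in the other set at 3, but by little, with a median of -0.16. Bub1, a spindle checkpoint kinase, had the largest of these differences at -0.24 ± 0.04, and Cdkn1c, an inhibitor of cell division, had a difference of 0.28 ± 0.09 (adjusted p = 0.0417, edgeR) with the high-Pou3f3 library above its partner in 5 of 8 pairs. The call on Cdkn1c ended in the shifted pairs (adjusted p = 0.0577, edgeR), in DESeq2 (0.0721) and without any 1 of pairs 1 to 5 (0.0552 to 0.103), and its difference was 0.546 in the libraries labelled upper and 0.005 in those labelled lower. None of the 17 genes higher in the low-Pou3f3 libraries passed in the shifted pairs, where each kept its sign, and 4 genes of the list were called lower with no pairs. Glycolysis and hypoxia genes were higher in the low-Pou3f3 libraries at 7 of 13 and in the other set at 1. Hk2, hexokinase 2, had the smallest adjusted p of these at 9.57e-05 (edgeR), with a difference of -0.31 ± 0.04. Immediate early and heat shock genes, which respond to dissection, had 3 and 4 of 18 called, against 14.7% and 15% of all tested genes.

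Hard tissue and matrix lists were set against the 14.7% and 15% of all tested genes that were higher in the high-Pou3f3 and low-Pou3f3 libraries. Odontoblast and dentin matrix genes were higher in the high-Pou3f3 libraries at 4 of 12 and in the other set at 0, and bone genes at 4 and 1 of 12, the 1 being Dlx5. The lists share Sp7 (0.52 ± 0.10), Runx2 and Col1a1 (0.39 ± 0.07), and Runx2 is also among the mesenchyme factors above. Sp7 and Col1a1 did not pass in the shifted pairs (adjusted p = 0.0771 and 0.116, edgeR). The summed levels of both lists were higher in the high-Pou3f3 libraries in 8 of 8 pairs. Proteoglycan matrix genes were called at 6 and 2 of 18, with Aspn, asporin, at 78.3 to 217 against 40.5 to 152 CPM and 0.92 ± 0.13. Basement membrane genes split, with 5 higher in the high-Pou3f3 libraries, among them the laminin chain Lama4 (0.39 ± 0.03), and 6 higher in the low-Pou3f3 libraries, among them Col17a1 (-0.28 ± 0.04) and Lamb3 (-0.23 ± 0.03) of the epithelial hemidesmosome. Of 8 ameloblast genes 2 and 2 were called, with Odam, of the maturing enamel organ, at 1.38 ± 0.18. Cartilage genes were called at 5 and 3 of 15, and Matn1, matrilin 1, was at 0.0792 to 0.953 against 0 to 0.0542 CPM.

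The lists of 4 other tissues held no called gene with all 8 pairs. Endothelium (11 tested), erythroid cells (9), macrophages and leukocytes (13) and the oral cornifying epithelium list (11) had 0 called in either direction by edgeR and 0 by DESeq2, while 2, 2, 3 and 0 had an unadjusted p under 0.05. With 1 pair left out in turn, the first 3 lists had 0 or 1 called. The cornifying list had 4 called, all higher in the high-Pou3f3 libraries, without pair 7, labelled lower ED16.5 with ED17.0, and at most 1 without any other pair. Summed endothelial levels were 459 to 519 and 441 to 546 CPM. Osteoclast markers had 0 and 2 of 11 called, against 14.7% and 15% of all tested genes. Skeletal muscle had 3 and 0 of 17, a share near the 14.7% of all tested genes, namely Myf5 (1.52 ± 0.37), Myod1 (1.15 ± 0.29) and Des (0.76 ± 0.19), none of which passed in the shifted pairs. Without pair 5, labelled lower ED14.5 with ED15.0, the count was 7, and without pair 4, labelled upper ED17.5 with ED18.0, it was 2, as Myod1 lost its call (adjusted p = 0.053, edgeR). Summed muscle levels reached 82.4 CPM in the high-Pou3f3 libraries and 26.9 CPM in the others. Hair and vibrissa genes, which could enter with skin, were called at 1 and 4 of 11, with Tchh, trichohyalin, at -0.80 ± 0.08 and Gata3 at 0.97 ± 0.08. Of 14 salivary gland and tongue genes only 5 could be tested, Nkx2-3 apart, and Prol1, Dcpp3 and Bpifa2 had 0 counts. The part of neighbouring tissue in the results was not tested.

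**Figure D5:**
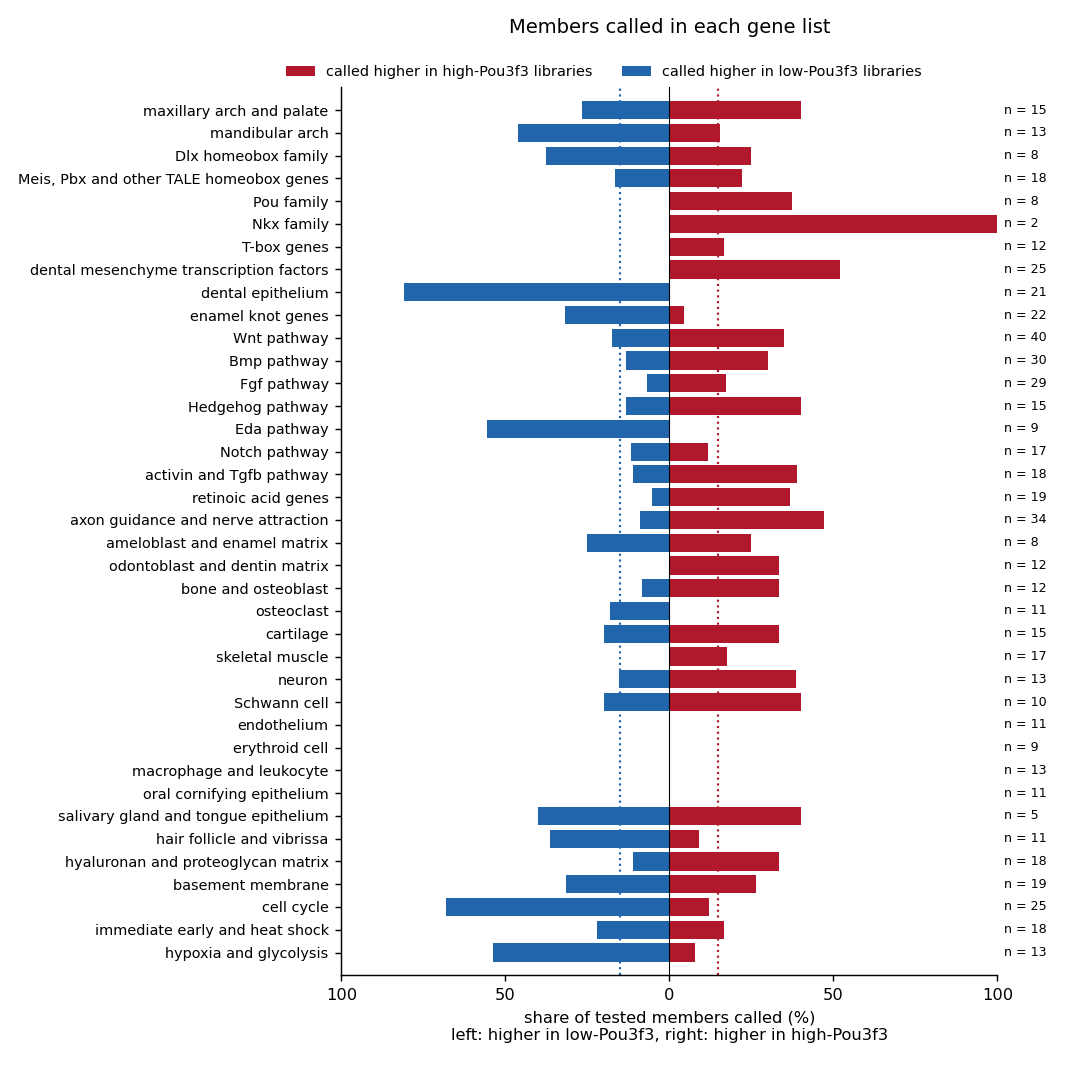
Share of tested members of each of 38 gene lists (vertical axis, with the number tested at the right) called higher in the high-Pou3f3 libraries (red, to the right) or in the low-Pou3f3 libraries (blue, to the left), in percent. Dotted lines mark the shares over all tested genes, 14.7% and 15%, and Pou3f3 and Nkx2-3 are not counted.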

How the data were processed

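The authors deposited for each of 16 libraries 1 list of gene symbols with raw, whole-number counts. The tools named in the submitters' processing notes are Bowtie2 2.0.2, TopHat2 2.0.6 and HTSeq 0.5.3p9, with the build mm10. Gene annotation, strand setting and the meaning of 1 count (read or read pair) were not given in the sources used here. Strand is not marked by the kit. Summary lines stayed out of library sizes.

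A gene entered the test if its level was 0.269 CPM or more in 2 or more libraries, equal to 10 counts in a library of median depth, and 16287 did. The test was that of edgeR 4.0.16 under R 4.3.3 (TMM, quasi-likelihood F test, Benjamini-Hochberg adjustment over all kept genes, threshold 0.05), with the pair as a block and the set as the only other term. The SE given for a log2 difference was obtained from that difference and F. Log2 CPM within pairs used a prior count of 2. Within pairs the libraries deviated together from their set's mean, with correlations of 0.554 to 0.891 over 5000 genes. The libraries of a pair share tooth label, flow cell and lane and have neighbouring stages, and these cannot be told apart here. The test was first checked on simulated counts. DESeq2 1.42.0 served as an alternative.

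A gene was named if its mean count reached 50, it passed the test, it had 1 sign in 8 pairs and 6 shifted pairs, and its difference was among the 15 largest in its direction, leaving out models without a symbol. Of each list up to 4 called members with the largest differences stand for it, and a few further members are named for their role. The members of the sets, the 38 gene lists and this rule were chosen with earlier results of these data known. Pou3f3 and Nkx2-3 were left out of list counts. A few list members are counted in their lists but not reported here. Promoters came from RefSeq on GRCm38.p6, where 21 of the 30 named genes had an entry, and other positions from GENCODE M21. With 8 libraries a set, counting error is small except for genes under about 1 CPM.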

Additional observations from a re-analysis of the deposited data

Results flagged for a closer look

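In 140 groups of 8 libraries, 3 held a library that stood far from the other 7, where chance gives about 1 in 20 groups. Icos in the high-Pou3f3 set was highest in labelled upper ED15.0, at 6.42 CPM, and the next library had 2.38 CPM. The summed axon guidance genes in the low-Pou3f3 set were highest in labelled lower ED17.5, at 3320 CPM, with the next at 2930 CPM. The summed oral cornifying epithelium genes in the low-Pou3f3 set were highest in labelled lower ED16.5, at 1880 CPM, with the next at 550 CPM.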

How the results depend on the processing

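Without the replicate block, 1371 genes were higher in the high-Pou3f3 and 1086 in the low-Pou3f3 libraries, against 2402 and 2447 in the paired fit. The shifted replicate block gave 565 and 402, from 12 libraries in place of 16, and the libraries labelled lower alone gave 1339 and 1087. Leaving out each pair in turn gave 1979 to 2270 and 1900 to 2303. DESeq2 gave 1977 and 1985, RLE normalization 2400 and 2450, no filter 2321 and 2226, the libraries labelled upper alone 1885 and 1640, and the 2 libraries of an embryo summed 2402 and 2228. Of 152 named genes and list members, 0 had a reversed call in any of these; in the shifted pairs 63 lost their call, with no pairs 21, and in either label alone 25 (upper) and 39 (lower). Why the counts moved was not tested, apart from the fewer libraries in the subsets. Per the labels the sets hold 4 embryos each. Stage, index and set are tied together by the labels, so their parts cannot be told apart. Genes under 1 CPM, such as Pou3f4, Nkx2-6, Matn1 and Isl1, rest on few counts.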
